A study of Mus musculus with 4 samples.

Results

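Cathepsins and subunits of the vacuolar ATPase were examined in CD45+ cells from the lungs and lung tumors of WT and Rab37 KO mice. The members are all genes whose symbol is Cts followed by a single letter, or begins with Atp6v. The rule found 40 genes among 31053 features: 18 cathepsins and 22 vacuolar ATPase subunits. By enzyme type the cathepsins are 14 cysteine peptidases, 2 aspartic peptidases (Ctsd, Ctse) and 2 serine peptidases (Ctsa, Ctsg). The proton pump genes are 9 subunits of the membrane sector V0 and 13 of the cytosolic sector V1. The rule uses gene symbols and no measured value.

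The study profiled single cells with droplet 3′ sequencing in 4 libraries. These are normal lung of WT mice, normal lung of Rab37 KO mice, lung tumors of WT mice and lung tumors of Rab37 KO mice, all C57BL/6 mice. Tumor-bearing mice were injected with LLC, a lung carcinoma line of the mouse, and the others with Matrigel, per the series' design text, and cells were taken 14 days after the tumors were established. Rab37 is a small GTPase of secretory vesicles, and the labels name no cell-restricted deletion. All 4 libraries were sorted for live CD45+ cells. There is 1 library per group, so no test between groups was possible; cells are not replicates, and every difference below compares libraries. Intervals are 95% and cover counting error only.

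Lysosomes break down proteins with cathepsins, which need an acid interior. The vacuolar ATPase supplies that acid: V1 splits ATP outside the membrane and V0 carries protons through it. Macrophages and dendritic cells use the same enzymes to digest cargo and to prepare antigens, with Ctss trimming the invariant chain (Cd74) that guards class II molecules. Transcription factors of the TFEB family drive many of these genes through E-box sites.

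After filtering, the libraries held 5033 (normal WT), 4629 (normal Rab37 KO), 641 (tumor WT) and 2725 cells (tumor Rab37 KO), with 5160629 (tumor WT) to 34011826 UMIs (normal WT; unique molecular identifiers, counts of captured molecules). The tumor WT library is the smallest. Rab37 stood at 8.47 UMIs of the gene per 1000000 UMIs (CPM) in normal WT against 0.388 in normal Rab37 KO, and at 4.65 in tumor WT against 0.266 in tumor Rab37 KO. The libraries share 0 to 6 cell barcodes per pair. UMIs of Y-linked genes numbered 1 in the tumor WT library and 4508 in the tumor Rab37 KO library, and those of Xist 2348 and 1210, so the sex makeup of the 2 tumor libraries differs along with genotype, and their parts cannot be told apart. The normal libraries, like tumor Rab37 KO, hold both Xist and Y-linked UMIs. The normal files name software version 3.0.1 and the tumor files 3.1.0, so tissue and software cannot be told apart. Normal WT held 3217 Y-linked UMIs against 1 in tumor WT, so in WT the sex makeup differs along with tissue too. Cells were clustered without the members and grouped into 9 immune classes by marker genes; the names end in "-like" because they were rebuilt here.

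The promoters of some members carry a TFEB-type E-box, shown here because it is a sequence feature that the rule did not use. Windows of 250 bases before to 50 after the start, from RefSeq on GRCm38.p6, were matched for 30 of the 40 members. The motif TCACGTGA, which reads the same on both strands, was found in 5 of the 34 windows of these 30 genes (14.7%) and in 0.974% of all 32851 windows. Its core CACGTG was in 8 of the 34 (23.5%) against 7.15% of all windows, and every TCACGTGA match is also a CACGTG match. The longer CLEAR palindrome that contains it was in 0 of the 34 and in 0.326% of all windows. In Atp6v0d1 the motif begins 4 bases before the start and runs across it. In Atp6v0e it lies just downstream, from base 3 after the start. The other matches lie upstream of the RefSeq start that defines their window. They are printed 5′ to 3′ on the gene's strand with the motif in capitals.
Atp6v1a, chr16:44139373-44139402 (-), motif 132 bases before one of its starts: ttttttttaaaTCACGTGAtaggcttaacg
Ctsa, chr2:164833743-164833772 (+), 13 bases before one of its starts: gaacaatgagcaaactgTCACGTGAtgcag
Ctsd, chr7:142387908-142387937 (-), 99 bases before its RefSeq start: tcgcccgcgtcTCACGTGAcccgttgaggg
The GENCODE models of these genes reach further upstream (Ctsd to 142388038, Atp6v1a to 44139705, Ctsa from 164832873), so the printed stretches lie inside them. These genes encode the catalytic A subunit of the pump, the protective protein and carboxypeptidase cathepsin A, and the main aspartic cathepsin. A match describes letters in a window and does not show that a factor binds there.

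By the mean over the 4 libraries Ctsd was the most abundant member, at 1336 CPM in normal WT, 1195 in normal Rab37 KO, 2388 in WT tumor and 1760 in Rab37 KO tumor. In the same order Ctss stood at 939, 839, 3326 and 1014 CPM, and Ctsb at 550, 541, 1894 and 1335. Ctss was thus above Ctsd in tumor WT, and Ctsb above Ctss in tumor Rab37 KO. Among pump subunits Atp6v0b (308, 280, 496 and 379 CPM) and Atp6v0e (375, 342, 396 and 347 CPM) had the highest means, while Atp6v1g1 led in tumor Rab37 KO at 405 CPM. The members together made up 0.696%, 0.646%, 1.40% and 0.907% of UMIs. Ctsj, Ctsm, Ctsq and Ctsr, placental cathepsins of rodents, had 0 UMIs. A further 7 had at most 105 UMIs over all libraries: Atp6v1g2, Atp6v0e2, Atp6v1c2, Atp6v1g3, Atp6v1b1, Atp6v0a4 and Atp6v1e2. Atp6v0c, the proteolipid of the proton ring, was low for a core subunit at 5.2, 5.2, 23.8 and 15.4 CPM; the annotation lists 2 processed pseudogenes of it, neither in the feature table, and how reads shared with them were counted was not given in the sources used here.

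Alveolar macrophage-like cells, which clear the airspace, gave the largest share of their UMIs to the members among the classes in normal lung, 1.40% in normal WT and 1.44% in normal Rab37 KO. Classical monocyte-like cells followed at 0.717% in normal WT, then macrophage-like (0.678%), nonclassical monocyte-like (0.604%), neutrophil-like (0.50%), dendritic cell-like (0.362%), NK-like (0.312%), B-like (0.273%) and T-like cells (0.141%). The normal Rab37 KO library had 0.710% in macrophage-like and 0.734% in classical monocyte-like cells, so these neighbours lie close together in both libraries. The T-like share leaves out the unnamed clusters 7 and 15, described with Ctsw below.

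**Figure D1:**
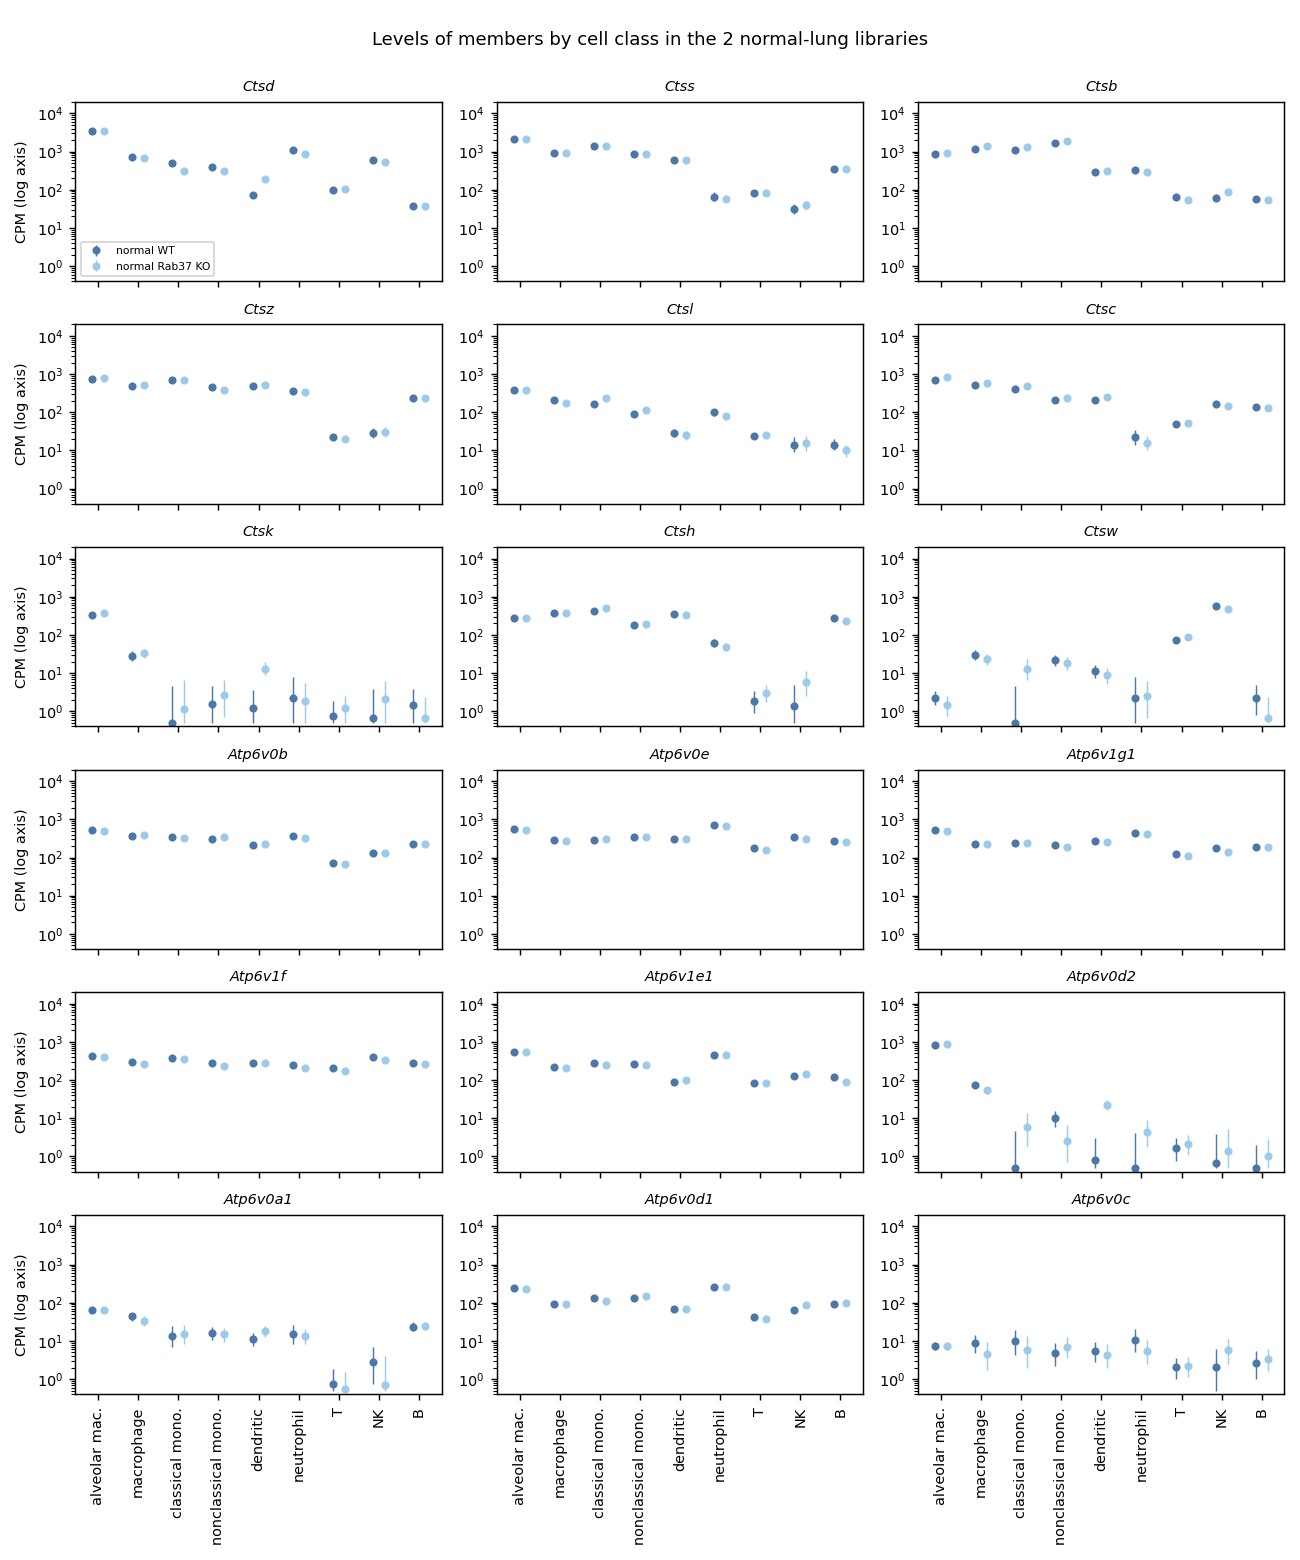
Levels of 18 members (CPM, log axis, 0 drawn at 0.5 CPM) in 9 immune classes of the normal WT and normal Rab37 KO libraries; each point is the summed count of a class in a library. Alveolar macrophage-like cells lead for Ctsd (3404 and 3513 CPM) and Atp6v0d2 (818 and 893 CPM), and NK-like cells for Ctsw (579 and 469 CPM).

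The leading cathepsin differed between some lineages and was shared by others. Ctsd stood at 3404 CPM (3370 to 3438) in alveolar macrophage-like cells of normal WT and at 3513 (3475 to 3552) in normal Rab37 KO. In neutrophil-like cells it was 1093 (1026 to 1162) and 863 (818 to 909), in macrophage-like cells 716 and 659, and in dendritic cell-like cells only 74.0 and 187. Ctsd therefore ranked first in alveolar macrophages and neutrophils and low in dendritic cells of both normal libraries.

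Ctss, the class II peptidase, stood at 2075 and 2158 CPM in alveolar macrophage-like, 1365 and 1432 in classical monocyte-like, 588 and 584 in dendritic cell-like and 349 and 344 in B-like cells. Neutrophil-like cells had 66.3 and 57.4 CPM of it. Its order over these classes was the same in both normal libraries. Ctsb led in nonclassical monocyte-like cells at 1655 and 1864 CPM. Dendritic cell-like cells, whose top member was Ctss, also carried Ctsz (490 and 504 CPM) and the aminopeptidase Ctsh (343 and 340 CPM). B-like cells carried Ctsh at 284 and 237 CPM.

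Ctsw, a cathepsin of cytotoxic lymphocytes, stood at 579 and 469 CPM in NK-like and 74.6 and 86.1 in T-like cells. The T-like class holds clusters 2, 9 and 10 only. Cluster 7, with Xcl1, Ccl5 and Ifng among its leading genes, and cluster 15, led by Trdc, scored highest for T markers but stayed unnamed. Of normal lung cells, cluster 7 held 337 (WT) and 300 (Rab37 KO), and cluster 15 held 138 and 172. T-like values therefore do not describe all T cells of the lung. With every cell thinned to 1500 UMIs, 211 of 379 NK-like cells of normal WT (55.7%, 50.5 to 60.7) had a Ctsw UMI, against 1 of 669 B-like cells (0.149%) as the background. Before thinning the NK-like share was 81.4% at a median of 3597 UMIs per cell, and the B-like share 0.731% at 3321. Ctsk, the collagen-degrading cathepsin best known from osteoclasts, was an alveolar macrophage gene in normal lung: 335 and 376 CPM there, against 28.8 and 32.8 in macrophage-like and 2.17 and 1.85 in neutrophil-like cells.

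Neutrophil-like cells gave more of their UMIs to the pump than any lymphoid class did, 0.289% in normal WT against 0.155% in NK-like, 0.147% in B-like and 0.0935% in T-like cells, and that order held in normal Rab37 KO. Atp6v0e, a small V0 subunit, stood at 710 CPM (657 to 767) in normal WT, against 678 (639 to 720) in normal Rab37 KO, in neutrophil-like cells, above the 567 and 528 of alveolar macrophage-like cells. The stalk subunit Atp6v1g1 stood at 445 and 423 CPM there, and at 517 and 491 in alveolar macrophage-like cells.

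Subunits with several gene copies were mostly served by 1 copy. Over all cells of normal WT, Atp6v1b2 held 5168 of 5170 B subunit UMIs, Atp6v1e1 9397 of 9397 of E, Atp6v0e 99.9% of e, Atp6v1c1 99.8% of C and Atp6v1g1 99.5% of G. The kidney-type copies Atp6v1b1, Atp6v0a4 and Atp6v1g3 had 7, 3 and 19 UMIs over the 4 libraries. Subunits d and a were the exceptions.

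Subunit d links the rotor to the membrane ring, and its copies divided by lineage. Atp6v0d2, the copy known from osteoclasts and macrophages, held 77.4%, 79.5%, 81.8% and 78.4% of d subunit UMIs in alveolar macrophage-like cells of normal WT, normal Rab37 KO, tumor WT and tumor Rab37 KO. In macrophage-like cells it held 44.4%, 37.4%, 58.6% and 33.4%. In neutrophil-like cells it held 0, 1.60%, 18.9% (11.4 to 28.5) and 6.18% (4.93 to 7.63), and the 0 of 239 UMIs in normal WT allows a share of up to 1.26% (3 counts). Alveolar macrophages used mainly Atp6v0d2 in all 4 libraries, and neutrophils mainly Atp6v0d1. After thinning, 653 of 945 alveolar macrophage-like cells of normal WT (69.1%) had an Atp6v0d2 UMI, against 2 of 1121 T-like cells (0.178%), with 98.8% and 0.711% before thinning at median depths of 11211 and 4629 UMIs.

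**Figure D2:**
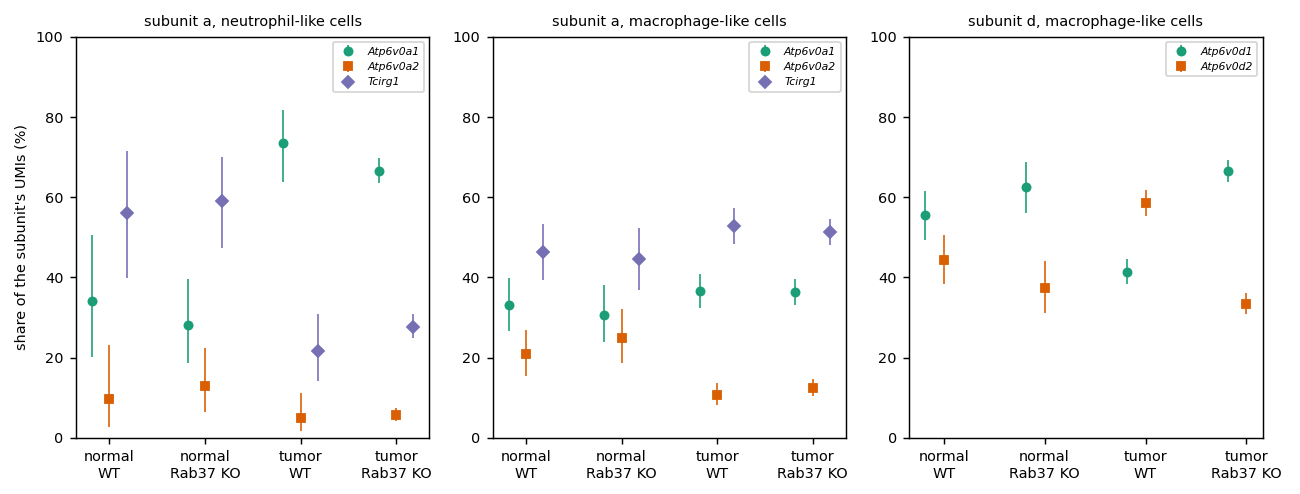
Shares (percent of UMIs) of the gene copies of subunits d and a by class and library; bars are 95% Clopper-Pearson intervals, and Atp6v0a4 is not drawn. The panels show subunit a in neutrophil-like and in macrophage-like cells, and subunit d in macrophage-like cells. Atp6v0a1 holds 73.5% and 66.6% of subunit a in neutrophil-like cells of tumor WT and tumor Rab37 KO.

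Subunit a anchors the pump and steers it to its membrane. In neutrophil-like cells Atp6v0a1 held 34.1% (20.1 to 50.6) of a subunit UMIs in normal WT, 28.2% (18.6 to 39.5) in normal Rab37 KO, 73.5% (63.9 to 81.8) in WT tumor and 66.6% (63.5 to 69.7) in Rab37 KO tumor. Tcirg1, the a3 copy, which the symbol rule leaves out, held 56.1%, 59.0%, 21.6% and 27.7%. The leading copy was thus Tcirg1 in both normal and Atp6v0a1 in both tumor libraries, while Tcirg1 levels were 25.0, 28.4, 38.6 and 33.8 CPM.

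The comparison of tumor with normal lung asks how immune cells of a class differ between the tissues, and of the 4 classes described here macrophage-like cells had the most members past the limit. In WT, 21 of 27 measured members were at least 1.5-fold higher in tumor and 3 were lower, where 18% of all measured genes were higher and 27.7% lower. The median log2 ratio of the members was 0.88, beside -0.12 over all genes. A gene counts as measured where at least 10 UMIs are expected in the smaller library. In Rab37 KO, 16 of 27 were higher and 1 lower, where 19.0% and 16.5% of all genes were, and the median was 0.75. The 2 comparisons use separate libraries. At a 2-fold limit 11 (WT) and 9 (Rab37 KO) were higher. Counts at a 2-fold limit are given here and below without the share of all genes past that limit. The same holds for counts after thinning, without cells rich in neutrophil-marker UMIs, or under any other alternative printed without a share. Such counts do not show whether the members differ from the background. With clusters weighted alike 12 were higher and 7 lower in WT, but this setting is here cluster 14 alone, with 8 tumor WT cells. By its own UMI filter that cluster had 9 of 19 higher and 3 lower, beside 18.4% and 27.2% of all genes.

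Ctsd in macrophage-like cells stood at 716 and 659 CPM in normal WT and normal Rab37 KO, and at 4338 and 3688 in tumor WT and tumor Rab37 KO. The tumor to normal ratio was 6.06 (5.70 to 6.44) in WT and 5.60 (5.26 to 5.96) in Rab37 KO. Ctsl, a broad lysosomal endopeptidase, stood at 216 and 172 CPM in normal lung and 1588 and 1080 in tumor, ratios of 7.35 and 6.28. Both genes were far higher in both tumor libraries than in either normal one. Ctss stood at 926 and 928 CPM in normal lung, and at 6409 in WT tumor and 2337 in Rab37 KO tumor, ratios of 6.92 and 2.52.

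Of the pump, 13 of 15 measured subunits were higher in WT tumor macrophage-like cells and 0 lower. Atp6v1c1, which joins the stator to V1, had the highest ratio, at 172 against 41.9 CPM (4.11-fold, 3.16 to 5.41) in WT and 130 against 42.8 in Rab37 KO. Atp6v0d2 stood at 74.5 and 54.2 CPM in normal lung, 244 in WT tumor and 96.8 in Rab37 KO tumor. The members that were lower in WT tumor were Ctsf (0.169 times), Ctso (0.440) and Ctsw (0.640), and in Rab37 KO Ctsf (0.153). The Ctsw ratio was 2.14 with clusters weighted alike, here cluster 14 alone with 8 tumor WT cells, and 2.23 without cluster 5.2. After thinning 0 members were lower in WT, but Ctsf, Ctso and Ctsw are too low to pass the UMI filter at that depth. Thinning therefore cannot show whether they stayed lower. Ctsf was lower in both tumors: 23.8 and 30.9 CPM in normal lung, 4.02 and 4.71 in tumor.

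Different clusters fill the macrophage-like class in the tissues. Cluster 14, led by C1qa, Fcrls and Stab1, held 116 of 132 cells in normal WT and 121 of 130 in normal Rab37 KO. In tumor WT 123 of 155 cells were in cluster 5.2, led by Gpnmb, Spp1 and Trem2, with Ctss also among its 10 leading genes. In tumor Rab37 KO 89 of 174 were in cluster 14, 43 in cluster 5.3 and 42 in cluster 5.2. Without cluster 5.2, 14 of 26 measured members were higher and 2 lower in WT tumor, beside 17.2% and 21.3% of all genes, and the Ctsd ratio was 3.07. Without it in Rab37 KO, 11 of 27 were higher and 3 lower, beside 19.8% and 16.1%. The unnamed tumor clusters 5.0, 5.1 and 5.5 held 430 tumor Rab37 KO cells outside the class. With them added, 12 of 26 were higher and 2 lower in Rab37 KO, beside 16.6% and 23.3%. The Rab37 KO ratios were then 3.51 for Ctsd, 1.64 for Ctss, 1.78 for Ctsb and 7.11 for Ctsl. In WT 21 of 27 were then higher and 3 lower, beside 17.8% and 27.2%, and the Ctsd ratio was 5.90.

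Within cluster 14 alone, which has 89 tumor and 121 normal cells in Rab37 KO, 14 of 27 members were higher and 4 lower, beside 23.4% and 18.2% of all genes. The ratios there were 4.75 for Ctsd, 6.65 for Ctsl and 3.02 for Ctsb, so these 3 were high in tumor within a single cluster. In that cluster neutrophil markers made up 0.604% of UMIs in normal and 1.94% in tumor Rab37 KO, platelet markers 0.101% and 0.250%, and the median depth was 10235 and 26242 UMIs; their part within the cluster was not tested. Over the class, leaving out cells with at least 1% neutrophil-marker UMIs gave 21 of 27 higher and 3 lower in WT and 17 and 1 of 27 in Rab37 KO, with Ctsd ratios of 6.53 and 6.66, and after thinning the Ctsd ratios were 6.48 and 5.90. Within cluster 14 of Rab37 KO, Ctsk and Atp6v0d2 were lower in tumor, at 0.113 and 0.313 times. Their higher class level in Rab37 KO tumor came with cluster 5.2: without it the ratios were 0.164 and 0.324, where the whole class gave 3.16 and 1.79. In WT only 8 tumor cells were in cluster 14, with 0 UMIs of Ctsk and Atp6v0d2 (at most 0.515 and 0.208 times); 9 of 19 measured members were higher and 3 lower, beside 18.4% and 27.2%.

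**Figure D3:**
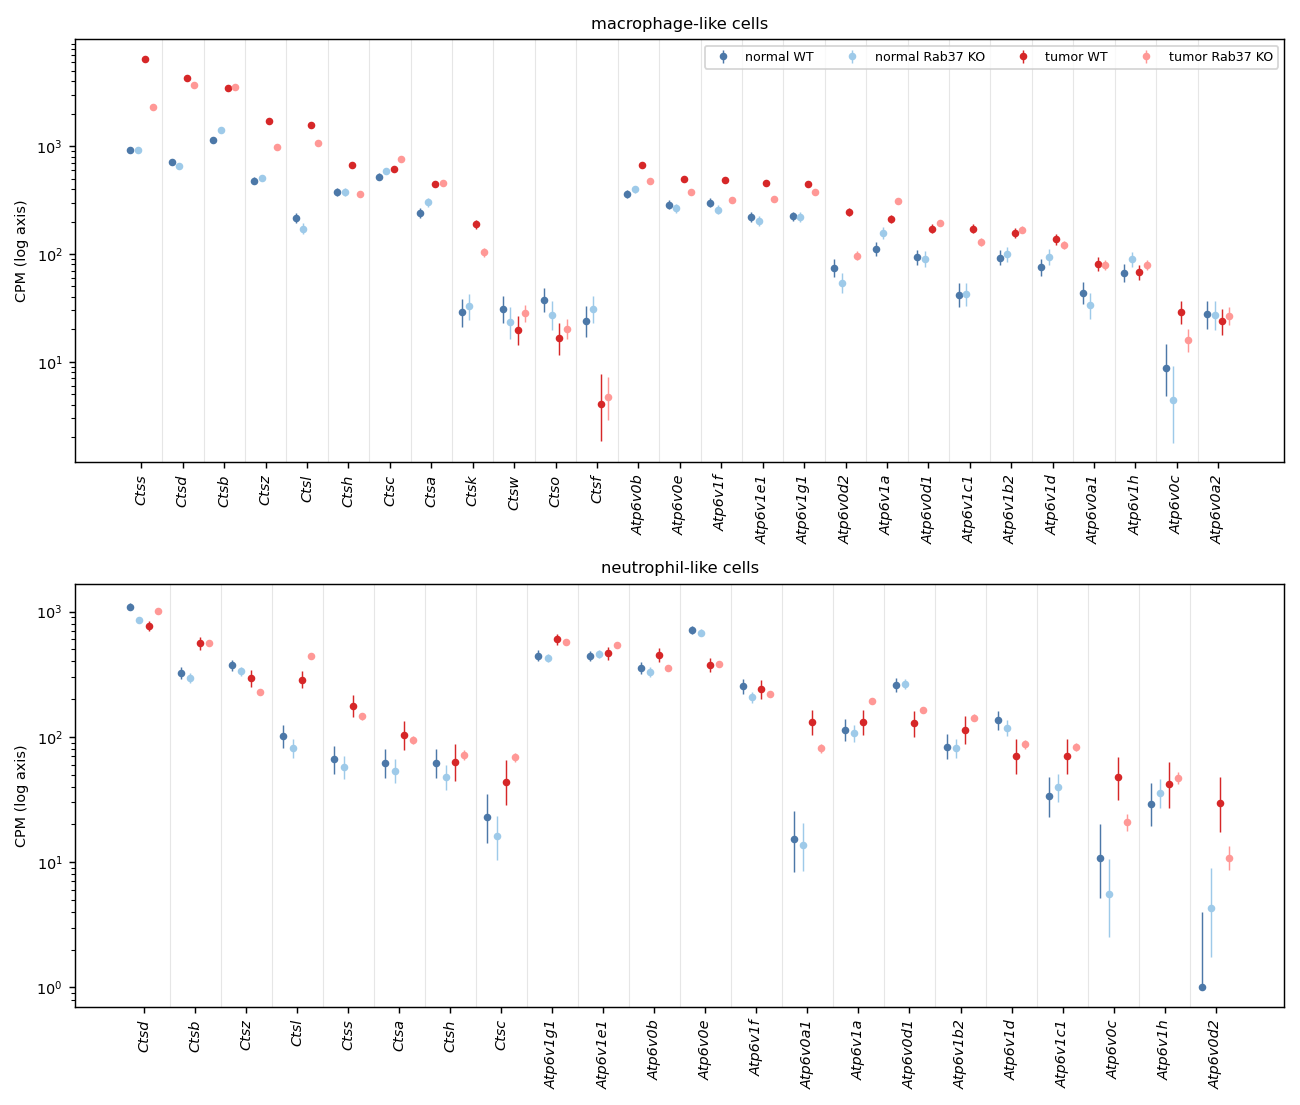
Levels (CPM, log axis, 0 drawn at 1 CPM) in each library of the members that reach 20 CPM in at least 1 library, by class; bars are 95% counting intervals. In macrophage-like cells Ctsd, Ctsl and Ctsb of both tumor libraries lie above both normal libraries, and Ctss of tumor WT (6409 CPM) lies above tumor Rab37 KO (2337 CPM).

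Neutrophil-like cells differed in fewer members. In WT 8 of 21 were higher in tumor and 3 lower, beside 31.4% and 15.8% of all genes, so the share that was higher is near the background. In Rab37 KO 13 of 24 were higher and 2 lower, beside 33.1% and 11.2%. At a 2-fold limit 5 (WT) and 8 (Rab37 KO) were higher, without a share of all genes at that limit to set beside them. Atp6v0a1 had the highest ratio in both: 15.2 and 13.6 CPM in normal WT and normal Rab37 KO, 132 and 81.2 in tumor, ratios of 8.65 (4.85 to 16.6) and 5.98 (3.91 to 9.61). Ctsl stood at 101 and 80.8 CPM in normal lung and 286 and 438 in tumor, and Ctss at 66.3 and 57.4, then 177 and 146. Both tumor libraries were above both normal ones for these 3 genes.

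The pump was not uniformly higher in tumor neutrophils. Atp6v0e stood at 710 and 678 CPM in normal lung and at 375 and 383 in tumor, 0.529 and 0.565 times. Atp6v0d1 stood at 260 and 265 CPM in normal lung and 128 and 164 in tumor, 0.493 and 0.618 times. Ctsc, the dipeptidase that activates neutrophil serine proteases, stood at 22.8 and 16.0 CPM in normal lung, and 43.9 and 68.5 in tumor. Normal neutrophil-like cells were nearly all in cluster 3 (368 of 385 in WT), and tumor cells in clusters 6, 8 and 18 (75, 103 and 19 of 207 in WT), so the tissues differ in clusters as well as in levels. With clusters weighted alike, on the few cells they share, the Ctsc and Ctsh ratios of Rab37 KO were 0.875 and 0.981, where the class gave 4.27 and 1.51.

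Dendritic cell-like cells form 1 cluster in all libraries, with 27 cells in WT tumor and 65 in Rab37 KO tumor. In WT 12 of 19 members were higher in tumor and 0 lower, beside 23.0% and 15.8% of all genes; the 12 were 4 of 6 after thinning, 5 at a 2-fold limit and 6 at a minimum of 30 expected UMIs. In Rab37 KO 6 of 24 were higher and 3 lower, beside 20.2% and 18.5%, near the background. Ctss stood at 588 and 584 CPM in normal lung, 1449 and 1260 in tumor, ratios of 2.46 and 2.16. Ctsa (56.3 and 63.3 CPM in normal lung, 135 and 153 in tumor) and Ctsl (28.8 and 25.3, then 75.7 and 111) were also above both normal libraries in both tumors. Neutrophil markers made up 0.201% and 0.226% of UMIs of normal and 1.12% and 0.316% of tumor dendritic cell-like cells, all 10 markers being above 0 in each. Without cells of at least 1% neutrophil-marker UMIs, 8 of 15 members were higher and 0 lower in WT, 6 and 2 of 23 in Rab37 KO, and the Ctss ratios were 2.57 and 2.16.

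Alveolar macrophage-like cells had the fewest members past the limit of these 4 classes. In Rab37 KO, with 231 tumor cells, 1 of 26 members was higher (Atp6v0c, 15.1 against 7.42 CPM) and 1 lower (Ctsc, 533 against 816 CPM), beside 5.46% and 5.57% of all genes. In WT, with 24 tumor cells, 4 of 22 were higher and 0 lower, beside 9.97% and 24.6%, and 1 was higher after thinning. Ctsk was the highest of these, 335 against 1423 CPM, but 3 cells held 76.7% of its tumor WT UMIs.

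The comparison of tumor Rab37 KO with tumor WT asks what differs in tumor immune cells without Rab37. In macrophage-like cells 0 of 27 members were 1.5-fold higher and 7 lower, beside 25.5% and 8.52% of all genes; in 13 of 18 alternatives 1 to 4 were higher. The median log2 ratio was -0.23, against 0.19 over all genes. The members that were lower were Ctss, Atp6v0d2, Ctsh, Atp6v0c, Ctsk, Ctsz and Atp6v1f. With clusters weighted alike 3 were lower, and Ctsk and Atp6v0d2 stood at 1.39 and 1.09 times; at a 2-fold limit 2 were lower. Ctss stood at 2337 CPM (2291 to 2383) in tumor Rab37 KO, against 6409 (6304 to 6514) in tumor WT, a ratio of 0.365 (0.355 to 0.374). Ctsh was 360 against 672 CPM and Ctsz 978 against 1724. Ctsb, 3547 against 3507 CPM, did not differ beyond counting error (ratio 1.01).

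The counts differed between the clusters of the class; a difference between clusters was not tested. In cluster 5.2, with 42 Rab37 KO and 123 WT cells, 5 of 25 members were higher and 2 lower, beside 15.4% and 10.0% of all genes, and the Ctss ratio was 0.959. Ctsd stood at 1.98 times the WT level there. In cluster 5.3, with 43 and 24 cells, 0 of 24 were higher and 9 lower, beside 24.5% and 15.3%; the ratios were 0.237 for Ctss, 0.376 for Ctsz and 0.478 for Ctsd. Pf4 and Ppbp, platelet genes, are among the leading genes of cluster 5.3. In cluster 5.2 the Ctss ratio was 0.838 (0.808 to 0.869) when each library's 3 largest cells were left out. In cluster 14, with 89 and only 8 cells, 7 of 20 were higher and 0 lower, beside 29.4% and 8.58%, with ratios of 2.26 for Ctsd, 2.28 for Ctsb and 0.831 for Ctss. The share of cluster 5.2 in the class was 79.4% in WT and 24.1% in Rab37 KO.

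**Figure D4:**
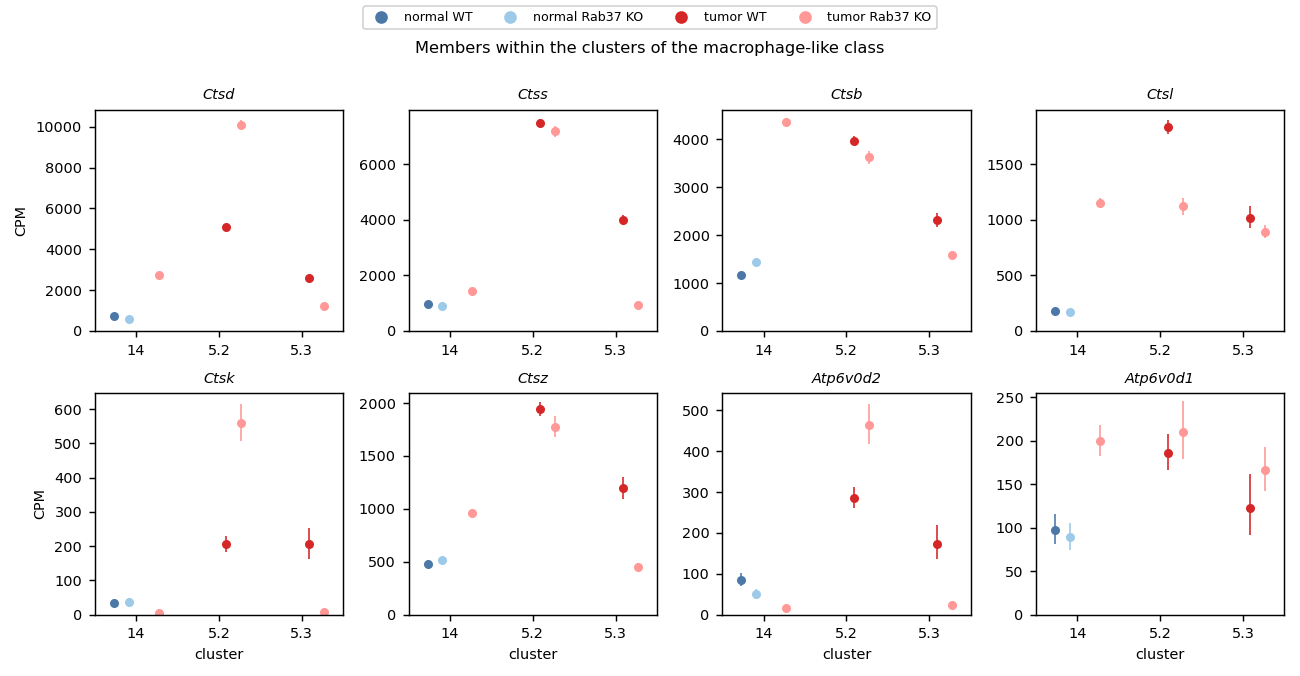
Levels (CPM, linear axes from 0) of members in the clusters of the macrophage-like class, for each cluster and library with at least 10 cells; bars are 95% counting intervals. Cluster 5.2 is high for Ctss in both tumor libraries, while cluster 5.3 is lower in tumor Rab37 KO than in tumor WT.

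Single cells weigh on some of these values. In tumor Rab37 KO 3 cells held 82.0% of the macrophage-like Ctsk UMIs, and the ratio was 0.187 in place of 0.545 once the 3 largest cells of each library were left out. Within cluster 5.2 the Ctsk ratio was 0.810 (0.594 to 1.09) without them in place of 2.72, and that of Ctsd was 1.70 (1.64 to 1.77). The Ctss ratio of the class was 0.332 without them. Neutrophil markers made up 1.70% of macrophage-like UMIs in tumor Rab37 KO and 0.747% in tumor WT, platelet markers 0.215% and 0.0663%, and the median depth was 22888 and 12848 UMIs per cell; all 10 neutrophil markers were above 0 in both, and 2 and 3 of 8 platelet markers were at 0. Without cells of at least 1% neutrophil-marker UMIs, 2 of 26 members were higher and 7 lower, and the Ctss ratio was 0.447. After thinning, 1 of 22 was higher and 8 lower, and the Ctss ratio was 0.455. The counts of both settings are given without the share of all genes. The part of platelet transcripts was not tested.

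In the other classes fewer members passed the limit between the tumor libraries, but fewer were also measured, so these counts do not rank the classes. Neutrophil-like cells had 2 of 21 members higher and 2 lower, beside 11.3% and 12.3% of all genes: Ctsc (68.5 against 43.9 CPM) and Ctsl (438 against 286) were higher in Rab37 KO, and Atp6v0c (20.8 against 47.4) and Atp6v0a1 (81.2 against 132) lower. Over the alternatives 0 to 6 were higher and 1 to 4 lower there, and the Atp6v0a1 ratio of 0.617 was 0.676 without its 3 largest cells per library. Dendritic cell-like cells had 2 of 20 higher and 2 lower, beside 15.9% and 14.3%, with Ctsh at 473 against 830 CPM; over the alternatives 0 to 7 were higher and 1 to 4 lower. Alveolar macrophage-like cells had 1 of 22 higher and 4 lower, beside 22.6% and 9.43%. The largest of these was Ctsk at 479 against 1423 CPM, a ratio of 0.337 that was 0.849 when each library's 3 largest cells were left out. The other 3 were Ctsl, Atp6v0a1 and Atp6v1d, at 0.778, 0.791 and 0.928 times without those cells. By that step 0 of the 4 stayed past the limit. It takes 3 of 24 cells from tumor WT but 3 of 231 from tumor Rab37 KO, and most ratios of this class rose. Atp6v1h went from 1.58 to 3.39, while Atp6v1f went from 0.832 to 0.810. The loss of the 4 calls therefore cannot show that these members did not differ. Ctsh was lower in macrophage-, dendritic cell- and B-like cells of tumor Rab37 KO, at 0.535, 0.570 and 0.627 times. Classical monocyte-like cells had 3 of 18 higher and 2 lower, beside 18% and 8.54% of all genes, T-like cells 0 and 3 of 11, beside 12% and 15.2%, and B-like cells 0 and 3 of 12, beside 11.4% and 15.9%. NK-like cells had 0 of 6 either way, beside 9.83% and 13.6%.

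In normal lung the genotypes were close. Alveolar macrophage-like cells had 0 of 28 members higher in Rab37 KO and 1 lower, beside 2.27% and 3.53% of all genes; macrophage-like cells 0 and 1 of 27, beside 8.90% and 7.06%; neutrophil-like cells 0 and 0 of 20, beside 10.7% and 5.25%. Classical monocyte-like cells had 1 and 1 of 22, beside 11.1% and 6.98%; nonclassical monocyte-like cells 0 and 1 of 25, beside 6.99% and 8.0%; T-like cells 1 and 0 of 25, beside 4.16% and 4.38%. NK-like cells had 1 and 1 of 21, beside 8.27% and 5.79%, and B-like cells 0 and 0 of 23, beside 6.11% and 4.08%. Dendritic cell-like cells were the exception, with 5 of 26 higher and 0 lower, beside 7.25% and 6.90%. The 5 were 0 of 15 after thinning, 2 at a minimum of 30 expected UMIs, and 3 with doublets kept, as a mean over cells or at a 2-fold limit.

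These 5 were Atp6v0d2 (47 UMIs against 2), Ctsk (13.1 against 1.23 CPM), Ctsd (187 against 74.0 CPM), Atp6v0a1 and Atp6v1b2. Only 6 of 161 cells carried the 47 Atp6v0d2 UMIs, and 4 of them held 45. Alveolar macrophage markers summed to 0.0679% of UMIs in these cells in Rab37 KO with 0 of 12 at 0, and to 0.0222% in WT with 3 of 12 at 0. Atp6v0d2, Ctsk, Ctsd and Atp6v1b2 also stood higher in alveolar macrophage-like than in dendritic cell-like cells of normal lung. So did Ctss, which was not among the 5. The part of alveolar macrophage transcripts was not tested.

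Genes that work with the members were read from 5 fixed lists. In WT macrophage-like cells, tumor against normal, 16 of 37 measured lysosomal hydrolases and activators were higher and 3 lower, among them Creg1 (6.00-fold), Psap, the saposin precursor (3.04-fold), and the asparaginyl peptidase Lgmn (2.28-fold). Of lysosomal membrane and transport genes 8 of 22 were higher and 2 lower, with Cd63 (4.14-fold) and Lamp1 (2.71-fold). Of pump partners outside the symbol rule 4 of 11 were higher and 1 lower, with Tcirg1 (1.91-fold) and Atp6ap1 (1.71-fold). Of TFEB family and lysosome signalling genes 5 of 16 were higher and 2 lower. Among sorting factors and inhibitors 4 of 13 were higher and 5 lower: the cysteine peptidase inhibitor Cstb was 4.38-fold higher, while the secreted inhibitor Cst3 and Cd74 stood at 0.51 and 0.48 times. These lists are read beside 18% of all genes higher and 27.7% lower.

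In the comparison of the tumors, listed genes went both ways, and counts are given for the hydrolases only. In macrophage-like cells of Rab37 KO against WT, 5 of 38 hydrolases were higher and 6 lower, beside 25.5% and 8.52% of all genes. Creg1 (0.32 times), the acid lipase Lipa (0.47) and Psap (0.62) were lower, and Lgmn was higher (1.61). Cstb stood at 0.50 times. In neutrophil-like cells of WT tumor against normal, the endosomal transporters Slc15a3 and Slc11a1 stood at 0.38 and 0.37 times, and the cystatin-family inhibitor Stfa2 was 22.9-fold higher. Of all measured genes there, 31.4% were higher and 15.8% lower. These genes are named without the counts of their lists or their Rab37 KO values.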

How the data were processed

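Cells, barcodes and UMI counts per gene came from the deposited matrices, which are raw counts made by the authors; the submitters' processing notes name the build mm10, with an aligner not given in the sources used here. Filtering of cells asked for 200 or more genes and no more than 10% mitochondrial UMIs. Scrublet (in scanpy 1.11.5) marked 209, 97, 6 and 4 doublets, which were removed; so low a number in the tumor libraries leaves doublets possible.

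Leiden clustering (leidenalg 0.10.2, resolution 1.0, 2000 variable genes, 30 components) left out the members, Rab37, Xist, Tsix and Y-linked genes. Clusters were named by a score of their markers. The naming rule had 2 versions: a score limit of 0.5, then a limit of 1 with a gap of 0.5 and a check of the 10 leading genes, set after the clusters, their leading genes (some of them members) and their cells per library had been seen.

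Counts were summed per class and library and given as CPM with exact 95% Poisson intervals. Ratios have conditional binomial intervals and shares Clopper-Pearson intervals. A member is called higher or lower at 1.5-fold, where the pooled rate gives at least 10 expected UMIs in the smaller library. Classes need at least 20 cells in both libraries. UMIs are molecules, so levels were not divided by length. Checked on simulated data with 3-fold changes, raised and lowered genes that passed this filter were called in at least 98.7% of cases. The filter itself loses lowered genes: in tumor Rab37 KO against tumor WT it kept 45 of 100 in alveolar macrophage-like, 57 in neutrophil-like and 90 in macrophage-like cells. The criterion of this check was changed to genes that pass the filter after a first version failed.

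The members and lists were chosen with earlier results of these data known. Named genes were the 6 highest cathepsins and 6 highest pump subunits, up to 4 members with the largest ratio each way per class, the gene copies of each subunit, and up to 4 genes per related list. Added after values were seen were the alternatives on single clusters, unnamed clusters and the largest cells, the choice of the 4 classes whose counts lead, and the rule for opposite directions between classes or clusters. Alternatives covered doublets, mitochondrial limit, denominator, cell weighting, clustering, class assignment, neutrophil transcripts, thinning to 1500 UMIs, fold limit and count filter.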

Additional observations from a re-analysis of the deposited data

Results flagged for a closer look

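Some members were past 1.5-fold in opposite directions, with both counting intervals leaving out 1, in 2 classes, or in 2 clusters of a class, under the same contrast. These differences between classes were not tested, since each group has 1 library.

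Clusters of the macrophage-like class differed in this way between the tumors. In tumor Rab37 KO against tumor WT, cluster 5.2 gave ratios of 1.98 for Ctsd, 2.72 for Ctsk and 1.62 for Atp6v0d2, where cluster 5.3 gave 0.478, 0.0419 and 0.132. Once each library's 3 largest cells were left out, the ratios in cluster 5.2 were 0.810 for Ctsk and 1.46 for Atp6v0d2, both inside the 1.5-fold limit. In cluster 5.3, 3 Rab37 KO cells held 23 of the 24 Atp6v0d2 UMIs. In cluster 5.3 Ctsk had 9 UMIs in 3 of 43 Rab37 KO cells, and 3 WT cells held 81 of its 85 UMIs. Neutrophil-like clusters also split under this contrast. Ctsd was at 1.64 in cluster 8 and 2.05 in cluster 18, against 0.319 in cluster 3, which had 10 cells in each tumor library. Ctsb was at 2.89 in cluster 18 and 0.614 in cluster 6, Ctsz at 2.44 and 0.485 in the same clusters, and Ctss at 2.10 in cluster 18 and 0.611 in cluster 8. Between classes, Ctsl was at 1.53 in neutrophil-like, 0.541 in alveolar macrophage-like and 0.637 in classical monocyte-like cells. The latter 2 were 0.778 and 0.779 without the 3 largest cells per library, inside the limit. Leaving out 3 cells weighs more on tumor WT, which has 24 alveolar macrophage-like and 27 classical monocyte-like cells. Tumor Rab37 KO has 231 and 106. Ctsc was at 1.56 in neutrophil-like and 0.255 in T-like cells.

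Between tumor and normal lung, pump subunits had such pairs in both genotypes. In WT, Atp6v0d1 was at 1.85 in macrophage-like and 0.493 in neutrophil-like cells. Atp6v0e was at 1.74 in macrophage-like, against 0.529 in neutrophil-like, 0.602 in NK-like and 0.480 in B-like cells. Atp6v1d was at 1.80 in macrophage-like and 1.54 in dendritic cell-like, against 0.517 in neutrophil-like and 0.473 in B-like cells. Atp6v1g1 was at 2.01 in macrophage-like and 0.421 in NK-like cells. In Rab37 KO, Atp6v0d1 was at 2.13 in macrophage-like and 1.85 in dendritic cell-like, against 0.618 in neutrophil-like cells. Atp6v1g1 was at 1.72 in macrophage-like and 1.71 in nonclassical monocyte-like, against 0.462 in B-like and 0.624 in NK-like cells. Atp6v0d2 was at 1.79 in macrophage-like and 2.5 in neutrophil-like, against 0.342 in dendritic cell-like cells. The dendritic cell-like ratio rests on 8 UMIs in 3 tumor cells against 47 in 6 normal cells. The neutrophil-like ratio rests on 80 UMIs in 36 tumor cells against 7 in 5 normal cells.

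Of the cathepsins, Ctsb in WT was at 3.07 in macrophage-like, 1.71 in neutrophil-like, 1.65 in alveolar macrophage-like and 2.22 in T-like cells, against 0.613 in classical monocyte-like cells. In Rab37 KO it was at 2.52 in macrophage-like, 1.91 in neutrophil-like and 3.15 in T-like, against 0.637 in classical monocyte-like cells. Ctsd in WT was at 6.06 in macrophage-like, 2.09 in dendritic cell-like and 2.74 in T-like, against 0.631 in classical monocyte-like and 0.612 in NK-like cells. In Rab37 KO, Ctsc was at 4.27 in neutrophil-like and 1.58 in dendritic cell-like, against 0.654 in alveolar macrophage-like cells, and Ctsk at 3.16 in macrophage-like and 0.298 in dendritic cell-like cells. The dendritic cell-like Ctsk ratio rests on 4 UMIs in 3 tumor cells against 27 in 6 normal cells. A single normal cell held 18 of the 27. In normal Rab37 KO against normal WT, Atp6v0d2 was at 27.8 in dendritic cell-like and 0.259 in nonclassical monocyte-like cells, and Ctsd at 2.53 in dendritic cell-like and 0.622 in classical monocyte-like cells. The Atp6v0d2 ratios rest on few cells. In dendritic cell-like cells they were 47 UMIs in 6 Rab37 KO cells against 2 in 1 WT cell. In nonclassical monocyte-like cells they were 4 UMIs in 3 Rab37 KO cells against 19 in 8 WT cells. Ctsa was at 1.59 in cluster 10 and 0.476 in cluster 9, both of the T-like class. Ctsk and Atp6v0d2 in Rab37 KO macrophage-like cells, Atp6v1d and Ctsc in neutrophil-like cells, Ctsb and Ctsd in WT classical monocyte-like cells, and Ctsl and Ctsc between the tumors in classical monocyte-like and T-like cells turned direction under an alternative.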

How the results depend on the processing

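With 1 library per group nothing here rests on replicates. Depth limits the tumor WT library most: in simulated data the UMI filter kept 45 of 100 lowered genes in alveolar macrophage-like cells between the tumors. Alternatives on single clusters, added clusters and largest cells were chosen after seeing the data. No paired analysis was possible because each group has 1 library and the labels give no replicate numbers. Of 457 alternative values for the leading counts, levels and shares, 324 stayed within 1.5 times or within counting error and 133 moved. Of 11610 for single ratios, levels and shares, 9628 did so, 1946 moved and 36 reversed; the cause was not tested.

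Counts are given as the reported number, then the numbers that moved. In tumor WT against normal WT, macrophage-like cells had 21 higher and 3 lower. At a 2-fold limit 11 were higher, and 12 with clusters weighted alike. The lower count was 7 with clusters weighted alike. It was 0 when thinned, where the 3 lower members are too low to pass the UMI filter. Neutrophil-like cells had 8 higher (5 in 3 alternatives) and 3 lower (1 or 5). Dendritic cell-like cells had 12 higher (4, 5 or 6: thinned, 2-fold limit, at least 30 expected UMIs) and 0 lower (1). Alveolar macrophage-like cells had 4 higher (1 or 2) and 0 lower (1 or 2). In tumor Rab37 KO against normal Rab37 KO, macrophage-like cells had 16 higher (9 at a 2-fold limit) and 1 lower (0, 2, 3 or 4). Neutrophil-like cells had 13 higher (8 at a 2-fold limit) and 2 lower (0 or 1), dendritic cell-like cells 6 higher (3 or 10) and 3 lower (0 or 1), and alveolar macrophage-like cells 1 higher (0 or 2) and 1 lower (0 or 2). In tumor Rab37 KO against tumor WT, macrophage-like cells had 0 higher, but 1, 2, 3 or 4 in 13 of 18 alternatives (4 without cluster 5.2), and 7 lower (2 at a 2-fold limit, 3 with clusters weighted alike). Neutrophil-like cells had 2 higher (0, 1, 4 or 6) and 2 lower (1 or 4), dendritic cell-like cells 2 higher (0, 1, 4, 5 or 7) and 2 lower (1 or 4), and alveolar macrophage-like cells 1 higher (0 or 2) and 4 lower (0, 1 or 2; 0 without the 3 largest cells). In normal Rab37 KO against normal WT, dendritic cell-like cells had 5 higher (0, 2 or 3; 0 when thinned) and 0 lower (2), macrophage-like cells 0 higher (1 or 4) and 1 lower (0, 2 or 3), neutrophil-like cells 0 lower (1), and alveolar macrophage-like cells 0 higher (1) and 1 lower (0).

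Ctsd in alveolar macrophage-like cells of normal WT was 3404 CPM, and 3267 with doublets kept, 4189 with the other denominator, 3313 as a mean over cells, 3351 at resolution 2.0, 3340 with each cell's own markers and 3282 after thinning.

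Weighting clusters alike turned 14 of the 36. It uses clusters with at least 5 cells in both libraries, so between tumor and normal macrophage-like cells it is cluster 14 alone, with 8 tumor WT cells. In macrophage-like cells it gave, for tumor Rab37 KO against tumor WT, 1.39 for Ctsk and 1.09 for Atp6v0d2; for normal Rab37 KO against normal WT, 1.06 for Atp6v0c; for tumor WT against normal WT, 0.515 for Ctsk, 0.208 for Atp6v0d2 (both upper bounds from 0 UMIs), 0.589 for Atp6v1b2, 0.658 for Atp6v0c and 2.14 for Ctsw (2.23 without cluster 5.2); and for tumor Rab37 KO against normal Rab37 KO, 0.113 for Ctsk and 0.313 for Atp6v0d2. Without cluster 5.2 the last pair was 0.164 and 0.324, and Atp6v0d2 was 0.897 at a 5% mitochondrial limit and 0.930 with clusters 5.0, 5.1 and 5.5 added. In neutrophil-like cells, clusters weighted alike gave 0.732 for Ctsa and 1.03 for Atp6v1d in WT, and 0.875 for Ctsc and 0.981 for Ctsh in Rab37 KO, tumor against normal. Atp6v1d in alveolar macrophage-like cells, tumor Rab37 KO against tumor WT, was 1.09 as a mean over cells. For the same libraries Ctsl in classical monocyte-like cells was 1.05 (5% mitochondrial limit), 1.11 (resolution 2.0) and 1.31 (own markers), and Ctsc was 1.21 in T-like (resolution 2.0) and 1.19 in B-like cells (own markers). Ctsh in T-like cells of normal lung was 0.673 (5% limit) and 0.741 (resolution 2.0). In WT, tumor against normal, classical monocyte-like cells gave 1.16 (resolution 2.0) and 1.36 (own markers) for Ctsd and 1.02 for Ctsb (resolution 2.0), and NK-like cells 1.18 for Atp6v1e1 (resolution 0.5). In Rab37 KO, T-like cells gave 1.31 (doublets kept), 1.35 (5% limit), 2.39 (resolution 2.0) and 1.60 (own markers) for Ctsc, and B-like cells 1.27 for Atp6v1b2 (own markers).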

Other observations

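Ctsg, a serine peptidase of neutrophil precursor granules, came from 1 cell in tumor WT. All 122 of its UMIs in the tumor WT library came from a single cell of cluster 17, which also held 33 UMIs of Mpo, 46 of Prtn3, 6 of Elane, 4 of Ms4a3 and 9 of Mki67 among 30255. The other libraries had 1, 3 and 7 Ctsg UMIs. 

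Clusters 5.0 (led by Ppbp and Arg1), 5.1 (Vcan and Arg1) and 5.5 (Ccl7 and Pf4) stayed unnamed and held 17 tumor WT and 430 tumor Rab37 KO cells. With them added to the macrophage-like class, 0 of 26 members were higher in tumor Rab37 KO than in tumor WT and 9 lower, beside 22.8% and 18.4% of all genes. The Ctss ratio was then 0.244 and the Ctsd ratio 0.549.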
